A study of Mus musculus with 8 samples.

Results

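Intraflagellar transport and transition zone genes build and gate the cilium, and 45 of them were followed here in bleomycin-injured mouse lung lacking Slc15a3. They were taken from the 18824 genes of the count table by symbol: every Ift, Bbs, Tctn, Nphp and B9d gene with a number after the stem, the Kif3, Dync2, Ttc21 and Rpgrip1 genes, and Wdr19, Wdr34, Wdr35, Wdr60, Mks1 and Cc2d2a. The rule reads symbols and no measured value, though the set was proposed with earlier results of these data known. The groups were KO_BLM, 4 lung libraries of Slc15a3-/- mice, and WT_BLM, 4 lung libraries of wild-type mice. Both were given bleomycin, a DNA-breaking drug that scars the rodent lung, at 2 mg/kg in 50 µl of saline into the trachea on day 0. The mice were 8 weeks old and were killed on day 21. Lungs given saline alone were not analysed here, so each difference lies between the genotypes after bleomycin. Slc15a3 encodes an endolysosomal carrier of histidine and small peptides. The labels do not say in which cells or how it was deleted, nor whether each library is a separate animal, so p-values measure only the spread between these libraries, which may be technical.

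A cilium grows from a basal body, and the proteins of its shaft are carried by trains of the IFT-B and IFT-A complexes. Kinesin-2 pulls the trains to the tip, dynein-2 brings them back, and the BBSome rides on them as an adaptor for membrane proteins. The transition zone at the base, built of the MKS and NPHP modules, controls what enters. The same machinery serves the single primary cilium of many lung cells, where Hedgehog signals are read, and the many beating cilia of airway ciliated cells.

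Total counts were 17627999 to 18471445 in KO_BLM libraries and 18878835 to 20180831 in WT_BLM libraries. Slc15a3 itself averaged 0.610 ± 0.303 CPM in KO_BLM and 51.3 ± 4.11 CPM in WT_BLM (SD, n = 4 each), with -6.36 ± 0.23 as the log2 fold change and its SE (edgeR adjusted p = 9.36e-07). CPM is a read count set against its library's total, after TMM correction of that total. Across the 14746 genes that passed the filter on low counts, 3057 were higher and 3061 lower in KO_BLM at an edgeR adjusted p under 0.05. The mix of cell type markers differed strongly as well. Markers were higher in KO_BLM for 8 of 8 genes of type 2 alveolar cells, 4 of 6 of club and goblet cells, 3 of 7 of type 1 alveolar cells, 9 of 10 of lymphocytes and 5 of 7 of endothelial cells, of which 1 more was lower. They were lower for 5 of 8 genes of fibroblasts, of which 2 were higher, and 5 of 7 of myofibroblasts and smooth muscle. Lower too were 8 of 8 of macrophages and 4 of 8 of cycling cells.

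Promoters are shown here because ciliary genes share a known control element, the X-box, bound by RFX factors such as RFX2 and RFX3, which work with FOXJ1 in ciliated cells. RefSeq windows from 250 bases before to 50 bases after the start (GRCm38.p6) were found for 39 of the 45 genes, in 42 windows. The letters searched, on both strands, were the RFX half-site GTTGCC, a pair of half-sites written GTNNCC and then, after 0 to 4 bases, GGNNAC, and the forkhead letters TGTTTAC. The pair can overlap the single half-site. Capitals mark exact matches only. Near matches such as GTTGCT, seen in the Kif3b and Ift74 windows, are left in lower case and not counted. Ift43 (chr12:86082311-86082610, plus strand), Ift172 (chr5:31291065-31291364, minus strand) and Ttc21a (chr9:119937356-119937655, plus strand) are the called genes of smallest p with a window in the table, and Ift74 (chr4:94614241-94614540, plus strand) has the largest p. Kif3a (chr11:53567119-53567418, plus strand), Kif3b (chr2:153291166-153291465, plus strand) and Bbs1 (chr19:4906578-4906877, minus strand) were added after their values were seen, the first pair because these motor partners went opposite ways and Bbs1 because its window holds a full pair of half-sites.
Ift43: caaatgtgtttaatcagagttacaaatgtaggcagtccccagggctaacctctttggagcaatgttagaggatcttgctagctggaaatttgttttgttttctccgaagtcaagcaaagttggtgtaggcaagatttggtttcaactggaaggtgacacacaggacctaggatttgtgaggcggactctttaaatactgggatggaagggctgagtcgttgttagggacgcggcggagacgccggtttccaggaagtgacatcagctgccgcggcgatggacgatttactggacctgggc
Ift172: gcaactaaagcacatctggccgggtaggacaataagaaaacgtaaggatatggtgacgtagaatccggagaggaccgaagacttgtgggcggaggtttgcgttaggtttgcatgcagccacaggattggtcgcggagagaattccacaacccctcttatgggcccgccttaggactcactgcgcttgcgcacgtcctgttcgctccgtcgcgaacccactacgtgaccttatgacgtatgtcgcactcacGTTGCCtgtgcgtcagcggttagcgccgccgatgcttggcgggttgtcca
Ttc21a: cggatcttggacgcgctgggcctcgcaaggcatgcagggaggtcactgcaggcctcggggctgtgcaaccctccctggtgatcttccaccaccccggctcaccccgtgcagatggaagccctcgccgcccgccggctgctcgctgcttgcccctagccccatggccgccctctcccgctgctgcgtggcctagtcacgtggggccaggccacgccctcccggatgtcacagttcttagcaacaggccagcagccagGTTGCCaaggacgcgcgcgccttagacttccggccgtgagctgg
Ift74: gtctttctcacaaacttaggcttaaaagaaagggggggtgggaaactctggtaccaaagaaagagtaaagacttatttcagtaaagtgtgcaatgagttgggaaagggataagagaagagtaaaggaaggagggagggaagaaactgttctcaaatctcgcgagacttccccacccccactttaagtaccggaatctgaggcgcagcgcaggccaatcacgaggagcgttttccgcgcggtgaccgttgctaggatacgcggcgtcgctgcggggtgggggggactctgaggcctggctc
Kif3a: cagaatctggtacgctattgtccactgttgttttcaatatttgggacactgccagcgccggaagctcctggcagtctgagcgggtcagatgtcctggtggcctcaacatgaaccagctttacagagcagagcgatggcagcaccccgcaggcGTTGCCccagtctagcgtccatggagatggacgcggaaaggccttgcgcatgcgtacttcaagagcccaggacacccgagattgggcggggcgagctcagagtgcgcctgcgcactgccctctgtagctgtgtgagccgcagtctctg
Kif3b: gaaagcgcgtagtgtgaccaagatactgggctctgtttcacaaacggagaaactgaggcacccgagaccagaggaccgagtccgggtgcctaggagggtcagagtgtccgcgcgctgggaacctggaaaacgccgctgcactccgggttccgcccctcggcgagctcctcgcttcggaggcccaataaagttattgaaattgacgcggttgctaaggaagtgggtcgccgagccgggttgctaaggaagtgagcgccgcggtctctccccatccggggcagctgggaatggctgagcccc
Bbs1: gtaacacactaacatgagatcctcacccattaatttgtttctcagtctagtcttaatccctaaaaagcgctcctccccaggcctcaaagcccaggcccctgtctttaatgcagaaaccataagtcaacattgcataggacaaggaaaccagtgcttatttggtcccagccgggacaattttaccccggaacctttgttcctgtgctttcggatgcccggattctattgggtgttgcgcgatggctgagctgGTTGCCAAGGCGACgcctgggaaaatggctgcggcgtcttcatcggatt

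The half-site lies 0 to 5 bases after the start in the Ift172 window, 6 to 11 after it in Ttc21a, 1 to 6 after it in Bbs1 and 98 to 93 before it in Kif3a (positions -98 to -93). In Bbs1 the pair runs over positions 1 to 14. The start meant here is that of the printed window. The windows of Kif3a, Ift74 and Ift172 lie inside the gene spans, chr11:53565701-53604248, chr4:94603266-94693233 and chr5:31253279-31291391. Their starts are thus not the outermost starts of these genes. Over the ciliary genes, 20 of 42 windows (47.6%) held the half-site, against 12.5% of all 32851 windows in the table and 12.9% of those of tested genes. The pair was found in 11 of 42 windows (26.2%), against 4.26% of all windows and 5.37% of those of tested genes. No ciliary window held the forkhead letters, which 3.65% of all windows and 2.64% of those of tested genes hold. Within the set, the half-site was in 7 of 13 windows of genes higher in KO_BLM (53.8%) and in 13 of 28 windows of genes not called (46.4%). The pair was in 2 of 13 (15.4%), those of Bbs1 and Mks1, and in 9 of 28 (32.1%). These matches describe letters in a window and were not read as binding.

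Each of the 45 genes was expressed highly enough to be tested, with 24 to 1833 reads per gene and library. Among them, 16 rose in KO_BLM, 1 fell and 28 were not called. The called share of 37.8% was near that of the tested genes as a whole, 41.5%. By direction, 35.6% of the ciliary genes were higher, against 20.7% of tested genes, and 2.22% were lower, against 20.8% of tested genes. The increases were modest, from 1.25-fold for Mks1 to 2.12-fold for Ttc21a, with a median log2 fold change of 0.67 among the 16. Only Ttc21a and Rpgrip1 reached a doubling, 2 of 45, whereas 12.8% of tested genes changed at least that much in one direction or the other. The single decrease was Kif3b, 1.55-fold lower in KO_BLM. The median log2 fold change of the 45 was 0.20, and that of tested genes was 0.0025.

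The libraries of the 2 groups did not overlap in CPM for 18 of the 45 genes (40.0%), against 40.9% of tested genes. KO_BLM lay above WT_BLM in 17 of these, as it did in 20.3% of tested genes, and below it in 1, as in 20.7% of tested genes. Of the 18, 16 were also called, while Wdr34 and Ift20 were not. Ift88 was called although its groups overlapped. The 28 genes not called had log2 fold changes between -0.32 and 0.33, and 13 of them lay within 0.1 of zero. The log2 fold change was above 0 in 32 genes and below 0 in 13. That split became 40 and 5 when libraries were scaled by their totals alone, since 8 genes near zero crossed it. The same scaling shifted calls over all tested genes, from 3057 higher and 3061 lower to 3789 and 2253. With replicates 4 of both groups left out the split was 30 and 15.

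**Figure D1:**
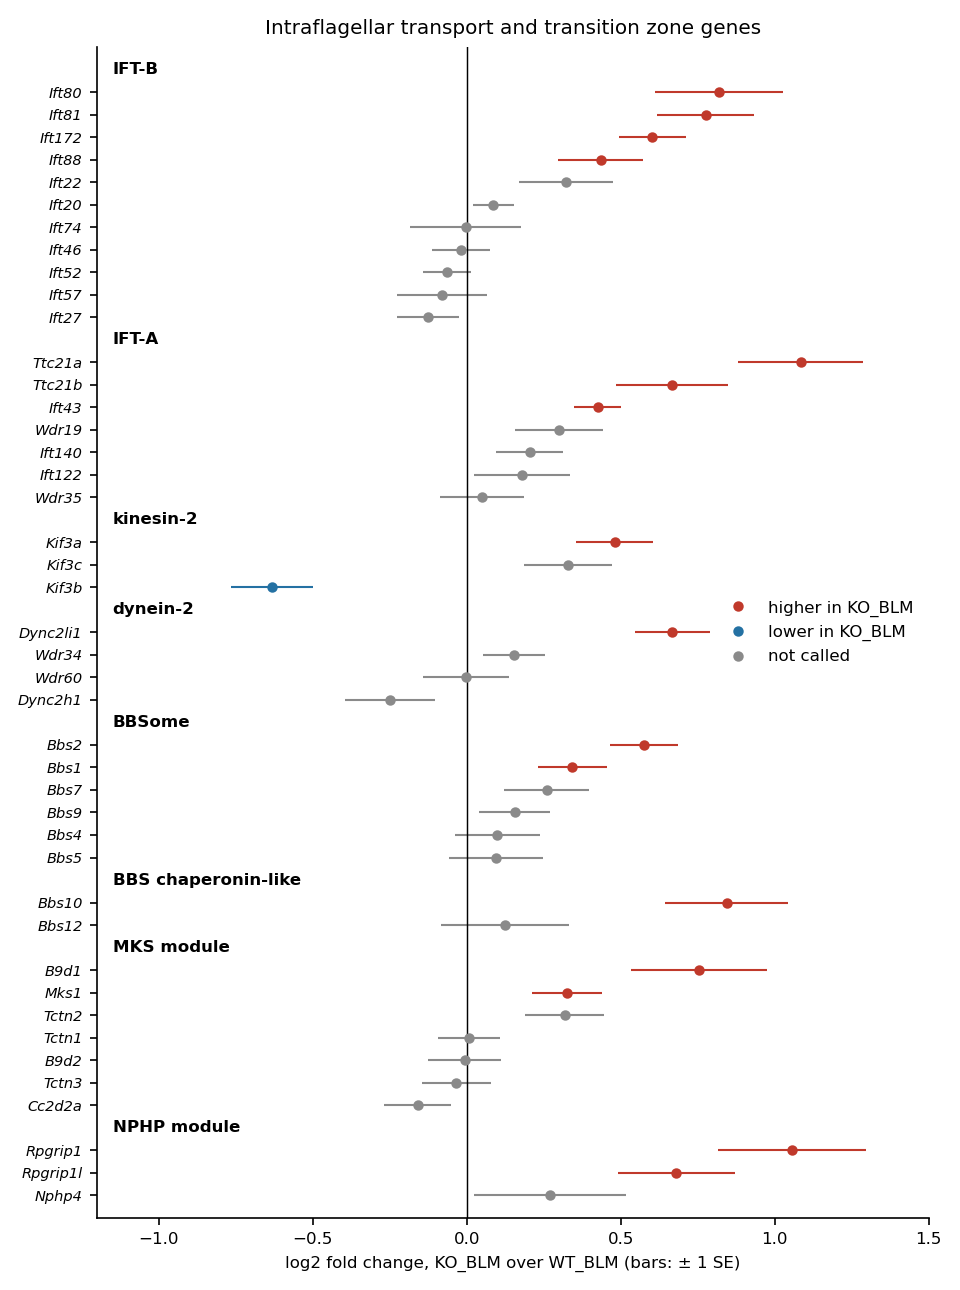
Log2 fold change of 43 of the 45 genes, KO_BLM over WT_BLM (x axis), grouped by complex; points are edgeR estimates, bars ± 1 SE, and colour gives the call. Genes called higher occur in every complex, from 0.33 for Mks1 to 1.08 for Ttc21a, and Kif3b at -0.63 is the single gene called lower. Of all tested genes, 20.7% were higher and 20.8% lower.

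By level, the set spans a wide range. In the deposited FPKM values, which divide by gene length and allow genes to be compared, the median over the 45 genes was 4.39 FPKM. Ift20, a subunit that also works at the Golgi, led with 45.2 FPKM over the 8 libraries, followed by Ift43 at 40.3, Ift27 at 19.3, Dync2li1 at 16.8 and Ift52 at 16.6 FPKM. At the low end stood Rpgrip1 at 0.315, Nphp4 at 0.474, Bbs12 at 0.510 and Dync2h1 at 0.831 FPKM. Ift43 averaged 47.4 ± 1.13 FPKM in KO_BLM and 33.3 ± 2.50 FPKM in WT_BLM, and Ift20 47.9 ± 1.03 FPKM in KO_BLM and 42.6 ± 1.51 FPKM in WT_BLM (SD, n = 4 each). Of the 2 most abundant genes, Ift43 was called and Ift20 was not, and of the 2 scarcest, Rpgrip1 was called and Nphp4 was not.

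In IFT-B, the complex of the outward trains, 4 of 11 genes rose and none fell: Ift172, Ift81, Ift80 and Ift88. The shares of all tested genes to set beside this and the complexes below were 20.7% higher and 20.8% lower. Counts in so few genes were not read as results about a complex. Ift172 (chr5:31253279-31291391), a large peripheral subunit, had 61.1, 65.9, 52.7 and 59.6 CPM in KO_BLM replicates 1 to 4, against 39.8, 40.9, 44.5 and 32.4 CPM in WT_BLM replicates 1 to 4. The lowest KO_BLM library, replicate 3, still lay above the highest WT_BLM library, also a replicate 3. That is a 1.52-fold increase (log2 0.60 ± 0.11, SE, edgeR adjusted p = 0.00239).

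Ift81 (chr5:122540265-122614546) forms the tubulin-binding module of IFT-B together with Ift74. It had 16.9, 20.0, 16.3 and 24.0 CPM in KO_BLM, against 11.1, 10.8, 13.7 and 9.48 CPM in WT_BLM. The groups did not overlap, replicate 4 being the highest in KO_BLM and the lowest in WT_BLM. The difference was 0.78 ± 0.16 on the log2 scale (SE), 1.71-fold, edgeR adjusted p = 0.00419. Its partner Ift74, the gene of largest p in the set, had 6.06, 9.65, 7.82 and 10.7 CPM in KO_BLM, against 8.25, 8.23, 8.25 and 9.64 CPM in WT_BLM. Here the KO_BLM libraries lay on both sides of the WT_BLM range. In log2 terms Ift74 differed by -0.0036 ± 0.18 (SE, edgeR adjusted p = 0.989).

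Ift80 (chr3:68892499-69004680), another peripheral subunit, had 20.7, 25.6, 21.2 and 28.8 CPM in KO_BLM, against 10.7, 18.3, 16.0 and 9.53 CPM in WT_BLM. WT_BLM replicates 1 and 4 were far below the other two of that group, and no WT_BLM library reached KO_BLM. Ift80 thus rose 1.76-fold, with a log2 fold change of 0.82 ± 0.21 and an edgeR adjusted p of 0.0120. Ift88, the subunit whose loss in mouse abolishes cilia, averaged 18.2 ± 3.12 CPM in KO_BLM and 13.5 ± 1.26 CPM in WT_BLM (SD, n = 4 each). KO_BLM replicate 1, at 14.9 CPM, was below WT_BLM replicate 1, at 15.3 CPM. The call (log2 fold change 0.43 ± 0.14, SE, edgeR adjusted p = 0.0288) was lost without KO_BLM replicate 2, 3 or 4 or WT_BLM replicate 2, 3 or 4, with adjusted p between 0.0523 and 0.0722, and was 0.10 without both replicates 4.

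The other IFT-B genes were not called: Ift22 and Ift27, which encode small GTPases, and Ift20, Ift46, Ift52 and Ift57. Their log2 fold changes were 0.32 for Ift22, 0.09 for Ift20, -0.02 for Ift46, -0.07 for Ift52, -0.08 for Ift57 and -0.13 for Ift27. The signs of Ift46, Ift52 and Ift57 turned with scaling by library totals alone. Ift20 had 54.8, 54.5, 50.8 and 51.5 CPM in KO_BLM, just above 48.7, 49.8, 50.4 and 50.3 CPM in WT_BLM. With an edgeR adjusted p of 0.324 it was not called. On the log2(FPKM + 1) scale, which has no TMM scaling, its difference was 0.17 and limma gave an adjusted p of 0.0450, or 0.0472 with a minimum of 1 FPKM.

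Genes of IFT-A, the complex of the return trains, had log2 fold changes above 0, apart from Wdr35 when KO_BLM replicate 4 was left out, and 3 of 7 rose. Ift43 (chr12:86082561-86162459), a small subunit, had the smallest p of the set. It had 37.6, 38.1, 38.0 and 35.3 CPM in KO_BLM, against 28.8, 28.1, 28.4 and 25.5 CPM in WT_BLM. Replicates of each group lay close together and far from the other group. The difference was 0.43 ± 0.08 (log2, SE), 1.34-fold, edgeR adjusted p = 0.00219.

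Ttc21a (chr9:119937589-119969430), a relative of the IFT-A subunit gene Ttc21b that is needed for the sperm tail, showed the largest increase of the 45. It had 37.8, 54.8, 40.5 and 55.0 CPM in KO_BLM, against 21.8, 28.2, 24.3 and 14.3 CPM in WT_BLM. KO_BLM replicates 2 and 4 formed the upper pair, and WT_BLM replicate 4 stood lowest. At 2.12-fold, the log2 value was 1.08 ± 0.20 (SE, edgeR adjusted p = 0.00272). Ttc21b itself (chr2:66183787-66256674) had 11.1, 10.9, 8.71 and 12.0 CPM in KO_BLM, against 6.05, 7.44, 8.41 and 5.01 CPM in WT_BLM. KO_BLM replicate 3 was only just above WT_BLM replicate 3. Its log2 fold change was 0.67 ± 0.18 (SE), 1.59-fold, edgeR adjusted p = 0.0160, or 0.0566 without both replicates 4.

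Wdr19, Ift140, Ift122 and Wdr35, which encode the large subunits of IFT-A, were not called. Wdr19 had a log2 fold change of 0.30 (edgeR adjusted p = 0.114), which passed without WT_BLM replicate 3, the one WT_BLM library within the KO_BLM range (0.45, adjusted p = 0.0137). Ift140 stood at 0.20, Ift122 at 0.18 and Wdr35 at 0.05. The sign of Wdr35 turned without KO_BLM replicate 4, to -0.06.

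The kinesin-2 motor genes split. Kif3a, the motor subunit common to the forms of kinesin-2 that carry trains, rose, and Kif3b, its usual partner, fell. Kif3a (chr11:53565701-53604248) had 27.2, 29.2, 25.5 and 37.4 CPM in KO_BLM, against 21.8, 20.7, 23.4 and 19.7 CPM in WT_BLM. The groups did not overlap, with KO_BLM replicate 4 well above the rest. Kif3a rose 1.40-fold (log2 0.48 ± 0.13, SE, edgeR adjusted p = 0.0136).

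Kif3b (chr2:153291395-153333390) had 44.8, 47.3, 51.1 and 54.5 CPM in KO_BLM, against 68.6, 66.8, 71.5 and 99.8 CPM in WT_BLM. Every KO_BLM library lay below every WT_BLM library, and WT_BLM replicate 4 stood far above the others. The log2 fold change was -0.63 ± 0.13 (SE), edgeR adjusted p = 0.00502, and without WT_BLM replicate 4 it was -0.48 with an adjusted p of 0.00253. Kif3c, which can pair with Kif3a in neurons, had 0.33 (adjusted p = 0.0913) and passed without KO_BLM replicate 4 (0.42, adjusted p = 0.0300). By the vM21 gene annotation, 37.8% of the exon bases of Kif3c lie under an antisense gene, and the strand setting of the counting is not given in the sources used here.

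Of the dynein-2 genes, Dync2li1 rose and Dync2h1, Wdr34 and Wdr60 were not called. Dync2li1 (chr17:84626475-84655568), the light intermediate chain that stabilises the motor, had 25.1, 28.0, 29.4 and 28.3 CPM in KO_BLM, against 16.5, 18.2, 20.8 and 14.2 CPM in WT_BLM. The groups were well apart. The difference was 0.67 ± 0.12 (log2, SE), 1.59-fold, edgeR adjusted p = 0.00239. Dync2h1, the heavy chain that is the motor itself, averaged 11.0 ± 1.79 CPM in KO_BLM and 13.1 ± 1.62 CPM in WT_BLM (SD, n = 4 each), or -0.25 ± 0.15 in log2 terms (SE, edgeR adjusted p = 0.196). Wdr60, an intermediate chain and among the 3 genes of largest p, had 12.5, 12.3, 12.4 and 17.0 CPM in KO_BLM, against 13.6, 11.7, 14.1 and 14.9 CPM in WT_BLM. All but KO_BLM replicate 4 were within a narrow band, and the groups overlapped (log2 fold change -0.0035, edgeR adjusted p = 0.987). Wdr34, the other intermediate chain, had 0.15 (adjusted p = 0.250), with 14.4 to 17.3 CPM in KO_BLM and 13.1 to 14.3 CPM in WT_BLM.

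**Figure D2:**
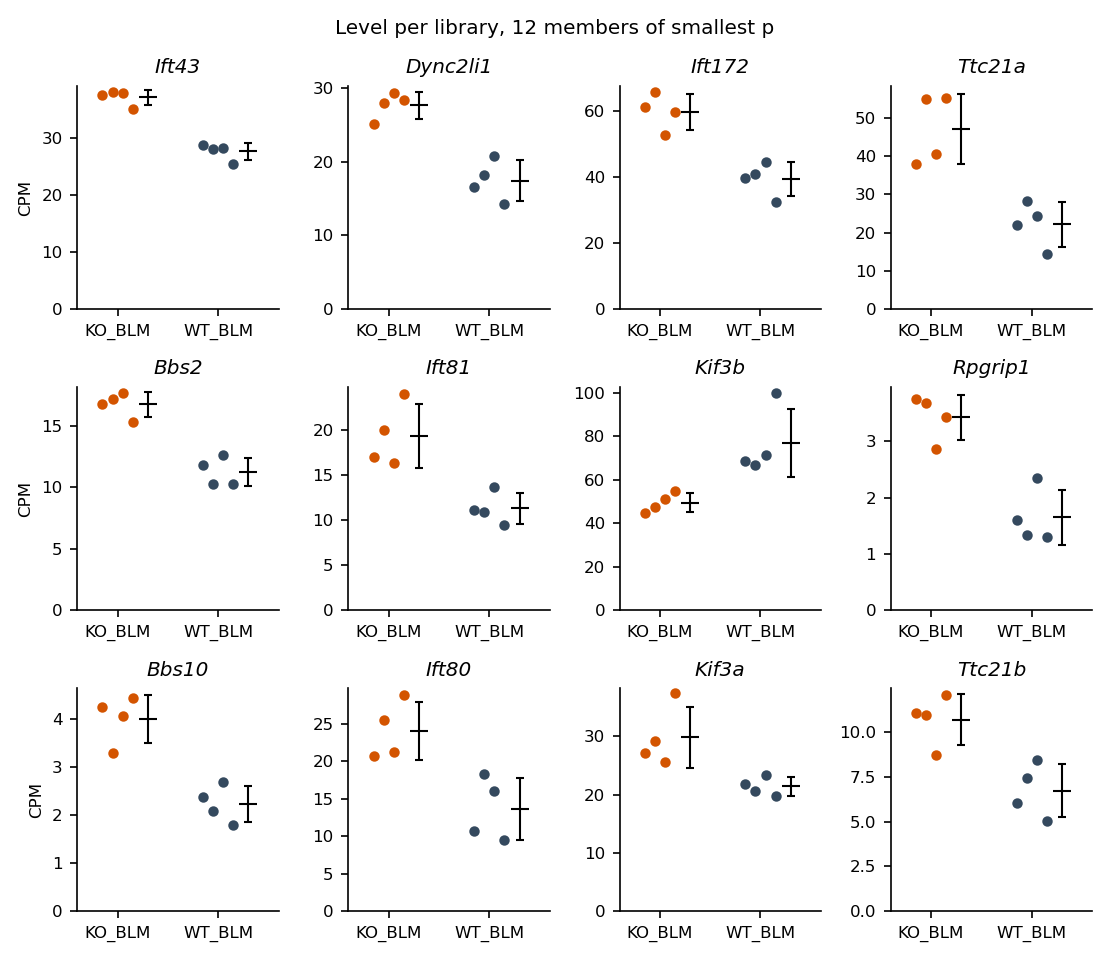
CPM (y axes, from 0) of the 12 genes of smallest p in each library, KO_BLM left and WT_BLM right; points are replicates 1 to 4 from left to right, bars the mean ± SD. The groups do not overlap in any of the 12 panels, and Kif3b is the panel in which KO_BLM lies below WT_BLM, with 44.8 to 54.5 CPM against 66.8 to 99.8 CPM.

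Among the BBSome genes, 2 of 6 rose. Bbs2 (chr8:94067952-94099369), part of the core on which the complex is assembled, had 16.8, 17.2, 17.7 and 15.3 CPM in KO_BLM, against 11.8, 10.3, 12.6 and 10.3 CPM in WT_BLM. No WT_BLM library came near the lowest KO_BLM library. Bbs2 rose 1.49-fold (log2 0.58 ± 0.11, SE, edgeR adjusted p = 0.00324). Bbs1, the subunit most often mutated in human Bardet-Biedl syndrome, averaged 17.0 ± 1.33 CPM in KO_BLM and 13.4 ± 1.34 CPM in WT_BLM (SD, n = 4 each; log2 fold change 0.34 ± 0.11, SE, edgeR adjusted p = 0.0324). Its call was lost without KO_BLM replicate 2 or 4 or WT_BLM replicate 1, 2 or 4 (adjusted p 0.0550 to 0.0946), and was 0.102 without both replicates 4. Bbs7, Bbs9, Bbs4 and Bbs5 had 0.26, 0.16, 0.10 and 0.10 and were not called.

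Bbs10 and Bbs12 encode chaperonin-like proteins that help the BBSome to fold and assemble. Bbs10 (chr10:111298679-111301736) had 4.24, 3.29, 4.07 and 4.43 CPM in KO_BLM, against 2.36, 2.08, 2.68 and 1.80 CPM in WT_BLM. KO_BLM replicate 2 was the lowest of its group and still above WT_BLM. Bbs10 differed by 0.84 ± 0.20 in log2 terms (SE, edgeR adjusted p = 0.00854). Bbs12 had 4.38 to 6.73 CPM in KO_BLM and 4.12 to 6.64 CPM in WT_BLM, and was not called (log2 fold change 0.12, adjusted p = 0.662).

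In the MKS module of the transition zone, 2 of 7 genes rose, B9d1 and Mks1, which together with B9d2 encode the B9 domain proteins. B9d1 had 9.48, 12.0, 9.96 and 12.0 CPM in KO_BLM, against 6.65, 6.99, 8.30 and 3.76 CPM in WT_BLM. The groups did not overlap, and WT_BLM replicate 4 stood well below its group. The log2 fold change was 0.75 ± 0.22 (SE), 1.69-fold, edgeR adjusted p = 0.0210, or 0.0567 without KO_BLM replicate 2. B9d2 had 12.7, 12.8, 15.8 and 12.5 CPM in KO_BLM, against 12.2, 14.8, 13.7 and 13.4 CPM in WT_BLM. The groups overlapped widely, and in log2 terms B9d2 differed by -0.0063 ± 0.12 (SE, edgeR adjusted p = 0.971).

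Mks1 was the weakest of the increases, with 12.0 ± 0.698 CPM in KO_BLM and 9.59 ± 0.815 CPM in WT_BLM (SD, n = 4 each; log2 fold change 0.33 ± 0.11, SE, edgeR adjusted p = 0.0429). Without any one of the KO_BLM replicates, or without WT_BLM replicate 1, 3 or 4, its adjusted p was 0.0549 to 0.120, and it was 0.125 without both replicates 4. Tctn2, of the tectonic family of transition zone proteins, had 0.32 (adjusted p = 0.0699). KO_BLM replicate 1 was lowest in that group at 16.5 CPM, and without it Tctn2 passed (0.43, adjusted p = 0.0127). Tctn1 at 0.0062, Tctn3 at -0.03 and Cc2d2a at -0.16 were not called. Hvcn1, on the opposite strand, covers 27.5% of the exon bases of Tctn1 and had a log2 fold change of -0.24 (adjusted p = 0.435).

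In the NPHP module, Rpgrip1 and Rpgrip1l rose, 2 of 5. Rpgrip1 (chr14:52104241-52161339), best known for anchoring RPGR in the photoreceptor cilium, was the scarcest of the 45. It had 3.75, 3.68, 2.87 and 3.44 CPM in KO_BLM, against 1.59, 1.34, 2.36 and 1.31 CPM in WT_BLM. KO_BLM replicate 3 and WT_BLM replicate 3 came closest without meeting. The log2 fold change was 1.06 ± 0.24 (SE), 2.08-fold, edgeR adjusted p = 0.00704; on the log2(FPKM + 1) scale, which shrinks differences of low genes, it was 0.26. The opposite-strand gene Supt16 covers 17.1% of its exon bases and had a log2 fold change of 0.0051. Rpgrip1l, a transition zone scaffold, had 10.6, 14.2, 12.6 and 19.9 CPM in KO_BLM, against 7.86, 10.2, 8.68 and 9.04 CPM in WT_BLM. KO_BLM replicate 1 was only just above WT_BLM replicate 2, while KO_BLM replicate 4 was far higher. Its log2 fold change was 0.68 ± 0.19 (SE), edgeR adjusted p = 0.0174, or 0.0516 without WT_BLM replicate 1.

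Nphp4, named for the kidney disease nephronophthisis, had 4.24 to 6.25 CPM in KO_BLM, against 2.61 to 5.70 CPM in WT_BLM. The groups overlapped, and the gene was not called (log2 fold change 0.27, edgeR adjusted p = 0.402).

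Proteins of one complex are needed in set proportions, so the ratio of raw counts of partner genes was taken within each library, where library scaling cancels. The 11 pairs, of partners or paralogues, were chosen with these results known, so the ratios are read as a description. For each pair without overlap, an exact permutation test (70 arrangements) gave p = 0.0286, or 0.0629 adjusted over the 11 pairs. The other pairs had larger values, so no pair passed 0.05 in the exact permutation test after adjustment. That p of 0.0286 is the smallest this test can give with these group sizes, however far apart the groups lie. No conclusion is therefore drawn from the lack of a pass. The ratio of Kif3a to Kif3b was 0.606, 0.618, 0.50 and 0.686 in KO_BLM, against 0.318, 0.310, 0.327 and 0.197 in WT_BLM. Each KO_BLM library exceeded each WT_BLM library, and the mean log2 ratio differed by 1.08.

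The ratio of Ift81 to Ift74 was 2.79, 2.07, 2.08 and 2.23 in KO_BLM, against 1.35, 1.31, 1.66 and 0.983 in WT_BLM, a log2 difference of 0.81. For Dync2li1 to Dync2h1 it was 2.76, 2.35, 2.93 and 2.17 in KO_BLM, against 1.34, 1.53, 1.64 and 0.919 in WT_BLM, a log2 difference of 0.94. In both pairs the groups were apart. B9d1 to B9d2 differed by 0.82 and Ift88 to Ift52 by 0.49, also without overlap. Each of these 5 pairs sets a gene called higher against one not called, or, for Kif3a to Kif3b, against one called lower. The ratios thus restate those calls without library scaling. In 5 further pairs the groups overlapped, and the log2 differences were 0.32 for Bbs2 to Bbs7, 0.42 for Ttc21a to Ttc21b, 0.45 for Rpgrip1 to Rpgrip1l, -0.16 for Wdr60 to Wdr34 and -0.18 for Ift57 to Ift20.

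**Figure D3:**
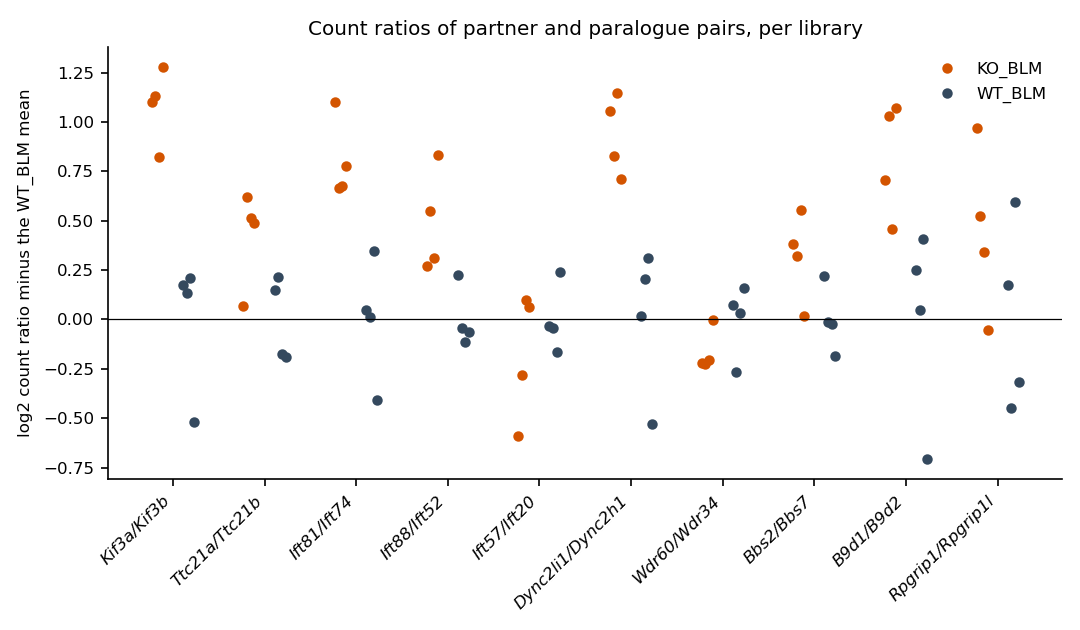
Log2 ratio of raw counts of 10 gene pairs in each library, minus the WT_BLM mean (y axis), KO_BLM left and WT_BLM right within each pair. The groups are apart for Kif3a/Kif3b, Ift81/Ift74, Ift88/Ift52, Dync2li1/Dync2h1 and B9d1/B9d2, with differences of 1.08, 0.81, 0.49, 0.94 and 0.82.

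The genes were also divided by the gene ontology terms of the deposited annotation. Of the 13 genes annotated to the motile cilium, 6 rose and none fell, and of the 32 without that term, 10 rose and 1 fell. The axoneme term covered 14 genes, of which 7 rose, non-motile cilium assembly 20, of which 10 rose, and smoothened signalling 16, of which 6 rose. Of all tested genes, 20.7% were higher and 20.8% lower. None fell under any of these terms, but only 1 of the 45 genes fell at all. Median log2 fold changes were 0.30 for the motile cilium, 0.30 for the axoneme, 0.29 for non-motile cilium assembly and 0.28 for smoothened signalling. Genes without the motile cilium term had a median of 0.19, and those without the axoneme term 0.155. Further terms were the ciliary transition zone (5 of 12 rose, median 0.29), photoreceptor connecting cilium (4 of 13, 0.20) and intraciliary transport particle B (4 of 11, 0.09).

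Other genes of the same machinery were read from lists chosen by their known roles. These lists and those below were chosen with earlier results of these data known, so they are no independent support. Of 20 further tested intraflagellar transport and BBSome genes, 8 rose and none fell, with a median log2 fold change of 0.27. Among all tested genes, the shares to set beside this and the lists below were 20.7% higher and 20.8% lower, 41.5% in all. Dynlrb2, a dynein light chain, had 1.29 (edgeR adjusted p = 0.000434), Traf3ip1, which encodes the IFT-B subunit IFT54, 0.78 (0.00447) and Ttc30b, which encodes a form of the IFT-B subunit IFT70, 0.74 (0.00286). Kifap3, the non-motor subunit of kinesin-2, had 0.13 and Cluap1, the IFT-B subunit IFT38, 0.12, and neither was called. Of 15 further transition zone genes, 5 rose and 1 fell, with a median of 0.22. Tmem107, an MKS module membrane protein, had 1.20 (adjusted p = 0.000879) and Rpgr, the partner of Rpgrip1, 0.60 (0.0180, and 0.0613 without both replicates 4), while Anks6, of the inversin compartment, had -0.43 (0.0497). Cep290, a large transition zone linker, had 0.42 and was not called (0.0568), and its adjusted p was 0.0355 without KO_BLM replicate 1, 0.0359 with library totals alone, 0.0409 with DESeq2 and 0.0397 with limma-voom and quality weights.

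The basal body list was nearly balanced, with 2 of 15 higher, 2 lower and a median of 0.07. Cibar2 had 1.96 (edgeR adjusted p = 0.00271) and its paralogue Cibar1 -0.65 (0.0120). Both encode BAR-domain partners of the basal body protein CBY1. Of 10 genes of cilium disassembly and capping, 3 rose and 3 fell (median -0.13). Ccp110, the cap of the mother centriole, had 0.80 (adjusted p = 0.00159), and Hdac6, the tubulin deacetylase that acts in resorption, -0.40 (0.00653). Hedgehog and ciliary membrane genes gave 7 of 19 higher and 2 lower (median -0.05). Ptch1, the Hedgehog receptor and a target of the pathway, had 0.73 (0.000178), Hhip, which binds the ligand, 1.11 (0.000847), Arl13b, a ciliary GTPase, 0.37 (0.0162, and 0.0568 without KO_BLM replicate 2) and Gli3, mainly a repressor, -1.33 (0.000423). Gli1, a further target, was not called at -0.05, and its sign turned with scaling by library totals alone.

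The parts of the beating shaft moved further. Of 37 motile axoneme genes, which encode dynein arms, radial spokes and their assembly factors, 34 rose and none fell. The 45 transport and transition zone genes had a median log2 fold change of 0.20, against 1.11 for this list. Dnaic1, an outer arm intermediate chain, had 1.46 (edgeR adjusted p = 0.00118), Ccdc39, a ruler of axonemal spacing, 1.38 (0.000782) and Dnah5, an outer arm heavy chain, 1.11 (0.0164, lost in 3 of 18 alternatives with up to 0.0781). The difference between the lists' medians is a description, as genes of one library are not replicates. Of 10 genes of multiciliated cell fate, 7 rose (median 0.82), Trp73 by 1.42 (0.000453) and Myb by 1.46 (0.00169). Foxj1, the master regulator of motile cilia, had 0.73 (0.0399), and that call was lost in 9 of 19 alternatives, among them the removal of KO_BLM replicate 2 or 4 or WT_BLM replicate 1 or 4 (0.0817 to 0.105). Rfx3 had 0.43 (0.0425), lost in 12 of its 18 alternatives with adjusted p up to 0.162, among them the removal of KO_BLM replicate 2, 3 or 4 or any WT_BLM replicate. Rfx2 had 0.21 and was not called (0.159).

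**Figure D4:**
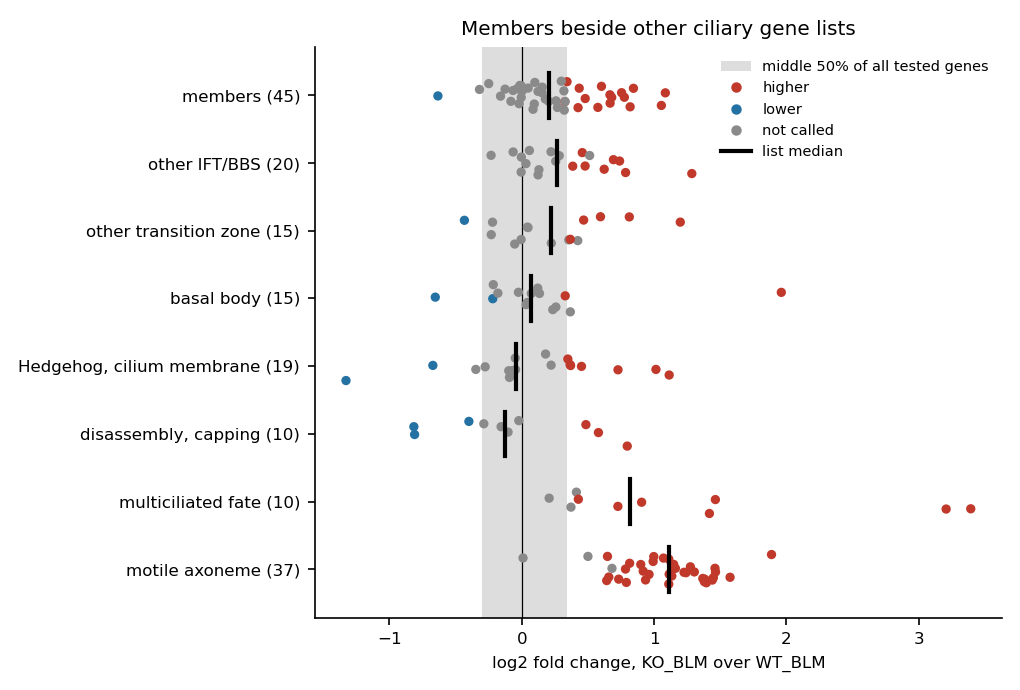
Log2 fold change, KO_BLM over WT_BLM (x axis), of the tested genes of each ciliary list; colour gives the call, black bars list medians, and grey the middle 50% of all tested genes, from -0.30 to 0.34. The median is 0.20 for the 45 genes, 0.27 and 0.22 for the further transport and transition zone genes, and 1.11 for the motile axoneme.

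Markers of airway ciliated cells moved with these genes: 11 of 12 were higher in KO_BLM, with summed levels of 572 to 756 CPM in KO_BLM and 182 to 285 CPM in WT_BLM, and none of the 12 was at 0 in any library. Dynlrb2, Foxj1, Rsph1 and Dnah5 among them also stand in the lists above. Markers of club and goblet cells, their airway neighbours, summed to 11490 to 22890 CPM in KO_BLM and 2921 to 9465 CPM in WT_BLM. Scgb1a1 alone made up most of these sums, with means of 15442 CPM in KO_BLM and 5969 CPM in WT_BLM. Of the 6 tested markers of these cells, 4 rose and 2 were not called. Fibroblast markers, from cells that bear primary cilia, summed to 3447 to 3588 CPM in KO_BLM and 8058 to 9104 CPM in WT_BLM, with 5 of 8 lower and 2 higher. The 3 collagens Col1a1, Col1a2 and Col3a1 made up most of that sum and of its difference. The other 5 markers summed to 1164 to 1534 CPM in KO_BLM and 958.8 to 1358 CPM in WT_BLM, and these ranges overlapped. Among them Tcf21 (log2 fold change 1.69) and Npnt (0.77) rose, Dcn (-0.58) and Lum (-1.43) fell, and Pdgfra had -0.29 and was not called. Macrophage markers summed to 535 to 1188 CPM in KO_BLM and 1995 to 2279 CPM in WT_BLM. The part of these shifts in the ciliary gene differences was not tested. In whole lung, a change in the number of cells of a type and a change in RNA per cell cannot be told apart.

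The libraries of a group also differed among themselves in a shared way. Summed over the 16 genes called higher, levels were 324, 371, 325 and 389 CPM in KO_BLM replicates 1 to 4, against 224, 240, 251 and 191 CPM in WT_BLM replicates 1 to 4. KO_BLM replicate 4 was the highest of its group in 9 of the 16 genes, while WT_BLM replicate 4 was the lowest of its group in 12 and WT_BLM replicate 3 the highest in 10. The motile axoneme list ran in the same order of libraries, with 445, 615, 497 and 746 CPM in KO_BLM and 275, 309, 323 and 216 CPM in WT_BLM. Summed over the 28 genes not called, levels were 531 to 597 CPM in KO_BLM and 533 to 582 CPM in WT_BLM, and overlapped. With replicate 4 of each group left out, an alternative chosen after seeing the data, 13 of the 45 genes were called higher and 1 lower (against 18.8% higher and 19.1% lower, 37.9% in all, of tested genes), and the median log2 fold change was 0.11.

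**Figure D5:**
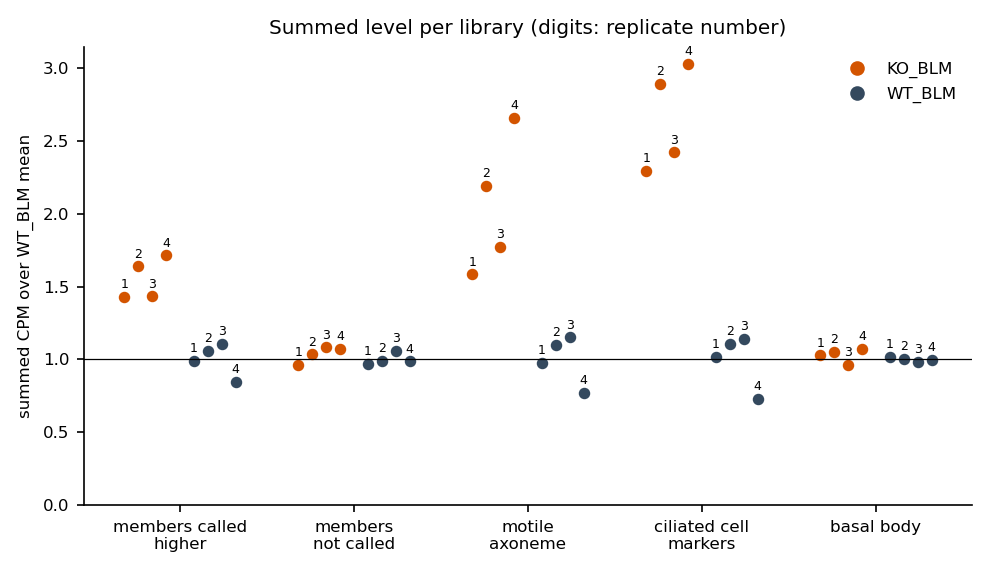
Summed CPM of 5 gene sets in each library, divided by the WT_BLM mean of that set (y axis, from 0), KO_BLM left and WT_BLM right, digits giving the replicate. KO_BLM replicate 4 is highest and WT_BLM replicate 4 lowest for the 16 genes called higher (389 and 191 CPM before division) and for the motile axoneme (746 and 216 CPM), while the 28 genes not called and the basal body genes overlap between the groups.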

How the data were processed

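Per the labels' protocols, TRIzol extraction and NanoDrop and Bioanalyzer checks preceded library making with the TruSeq Stranded mRNA kit. The authors deposited unnormalized read counts per gene. They also deposited FPKM values, which equalled the count over the column total and one length per gene in 100% of cases (relative tolerance 1e-06), so they are no independent measurement. Trimmomatic, HTSeq, Cufflinks, DESeq and the mm10 build are named in the submitters' processing notes, without versions or roles. Which aligner and annotation were used, and whether counting used strand, is not given in the sources used here. Groups and replicate numbers come from the sample titles, and 0 columns belonged to other samples.

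Counts were tested with edgeR 4.0.16 in R 4.3.3 (TMM, filterByExpr with minimum count 10 and total 15, robust glmQLFit, quasi-likelihood F test) over the whole table, with Benjamini-Hochberg adjustment at 0.05 over 14746 genes. SE was taken as the size of the log2 fold change divided by √F, and the biological coefficient of variation was 16.6%. By chi-square over genes (7.24 to 55.7 per degree of freedom), no 2 libraries of a group were alike within counting noise, and all 8 were kept as replicates. Alternatives used DESeq2 1.42.0 and limma 3.58.1, other scalings and filters, the replicate block and each library left out. The model was tested on simulated data. Same-numbered libraries did not deviate together (r of -0.079 to 0.119), so the numbers were not used as pairs.

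The 45 genes, the lists and the gene pairs were chosen with earlier results of these data known. The rule for named genes took all 45, per-library values for the 12 of smallest and 3 of largest p, the 3 genes of smallest p of each list and 14 preset ciliary genes. Some genes that the rule took from the lists are not named in the text. Some of the 45 genes, and 1 gene pair, entered every count and adjustment but their own values are not reported here. Per-library values of other genes, Tctn2 among them, and the names Anks6, Hvcn1 and Supt16 were chosen after their values were seen. Of gene identifiers, 18715 matched RefSeq, which gave coordinates (GRCm38) for the 45 genes and promoter windows for 39.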

Additional observations from a re-analysis of the deposited data

Results flagged for a closer look

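In 6 of 90 tests of 45 genes in 2 groups of 4 libraries, one library stood apart, its gap to the nearest other, as a share of the group's range, exceeding Dixon's critical value. Chance flags about 1 in 20 such groups. Kif3b had 99.83 CPM in WT_BLM replicate 4, against 66.76 to 71.52 CPM in the other WT_BLM libraries, and Ift74 had 9.64 CPM there, against 8.233 to 8.251 CPM. Wdr34 had 17.31 CPM in KO_BLM replicate 4, against 14.44 to 14.76 CPM in the other KO_BLM libraries, and Wdr60 had 17.0 CPM there, against 12.33 to 12.51 CPM. B9d2 had 15.85 CPM in KO_BLM replicate 3, against 12.46 to 12.83 CPM in the others of that group. Ift88 had 15.34 CPM in WT_BLM replicate 1, against 12.64 to 13.02 CPM in the others of that group. Of these genes Kif3b and Ift88 were called. KO_BLM replicate 4 and WT_BLM replicate 4 hold 4 of the 6 values. The cause was not tested.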

How the results depend on the processing

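Of the 17 called genes, 10 were called under each of 19 alternatives and Rpgrip1 under the 18 that tested it (it did not reach 1 FPKM), 6 were lost under at least 1, and 0 changed direction. The number called higher was 12 to 18 and stayed within 1.5 times of 16. With each library left out in turn it was 12 to 16, and genes called lower numbered 1 to 2, while 15.6% to 19.9% of all tested genes were higher and 14.6% to 19.5% lower. The 12 came without KO_BLM replicate 2, with 15.6% of tested genes higher, and the 2 without WT_BLM replicate 2, with 19.5% lower. Limma-voom with quality weights also gave 2 lower, against 26.1% of tested genes. The median log2 fold change of 0.20 became 0.29 both with library totals alone and on log2(FPKM + 0.1), 0.11 without both replicates 4 (chosen after seeing the data), and 0.14 to 0.28 without single libraries. Over the whole table, library totals alone gave 3789 higher and 2253 lower, limma on log2(FPKM + 1) 3680 and 2145, and with at least 1 FPKM 3253 and 2007, where TMM gave 3057 and 3061. The replicate block, for numbers that do not pair the libraries, gave 13 higher and 1 lower, and 2878 and 2824 over the table. Signs turned in genes near zero, and the cause was not tested. With library totals alone the log2 fold changes of these were B9d2 0.079, Ift46 0.068, Ift52 0.022, Ift57 0.012, Ift74 0.089, Tctn3 0.057, Wdr60 0.089 and Gli1 0.040. On log2(FPKM + 1), with and without the filter, they were B9d2 0.070, Ift46 0.056, Ift52 0.017, Ift74 0.045, Tctn3 0.043, Wdr60 0.056 and Gli1 0.029. On log2(FPKM + 0.1) they were B9d2 0.076, Ift46 0.060, Ift52 0.018, Ift74 0.052, Tctn3 0.049, Wdr60 0.0715 and Gli1 0.035. Limma-voom gave Ift74 0.040 and Tctn1 -0.012, and without both replicates 4 they were B9d2 0.023, Bbs12 -0.072, Tctn1 -0.0033 and Wdr35 -0.014. Leaving out single libraries gave B9d2 -0.094 to 0.038, Ift46 -0.095 to 0.039, Ift57 -0.15 to 0.025, Ift74 -0.14 to 0.13, Tctn1 -0.056 to 0.074, Tctn3 -0.081 to 0.034, Wdr35 -0.056 to 0.16, Wdr60 -0.14 to 0.041 and Gli1 -0.21 to 0.091. Rpgrip1, the scarcest gene, had 24 to 68 reads per library, which limits its precision.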
